A study of Mus musculus with 15 samples.

Results

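To see which effects of optic nerve crush (ONC) were still present in retinas of mice treated at the acupoint BL1, retinas taken after ONC and BL1 treatment (ONC-J) were compared with intact retinas (WT). This comparison used 6 of the 15 RNA-seq libraries of the series, 3 per group, and covered every gene that passed a filter on low counts, which was 19259 of the 54532 genes in the count table. Genes called in ONC-J were then sorted by what had happened to them in the 3 libraries of retinas after ONC alone (ONC). An injury gene that was called in both comparisons with WT and moved the same way was taken as remaining under BL1, and a gene called in ONC-J whose unadjusted p in ONC against WT was 0.05 or more was taken as absent after crush alone. The 6 libraries of the other 2 needled groups entered the low-count filter, the scaling of library sizes and the estimate of the spread between libraries. They were not part of any comparison given here.

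All mice were wild type C57BL/6, 5 weeks old by the sample labels and 6 weeks old by the study's methods. In ONC and ONC-J mice, both optic nerves were crushed with forceps behind the eyeball under xylazine and ketamine, and retinas were taken 2 days later. ONC-J mice were anesthetized with the same drugs before needling at BL1, an acupoint beside the inner corner of the eye, on both sides, and the methods describe 3 treatments, each 24 h apart. WT retinas were intact, and whether WT mice were anesthetized, or ONC mice anesthetized again, is not stated in the sources used here. Between ONC-J and WT, the effects of crush, surgery, anesthesia and needling therefore cannot be told apart. The methods call the 3 libraries of a group biological replicates and do not say if the RNA in each came from 1 mouse or a pool. Every n therefore refers to libraries, and the p-values set a difference against the spread between libraries within groups.

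The optic nerve consists of the axons of retinal ganglion cells (RGCs), the output neurons of the retina, and a crush cuts these axons while the cell bodies stay in the retina. Injured RGCs switch on transcription factors and growth-associated genes that other injured neurons also use, together with the integrated stress response, in which kinases such as PERK raise the translation of ATF4, and ATF4 in turn raises genes of amino acid supply. They also lose transcripts that mark the mature RGC, and many of them later die by apoptosis.

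Total counts per library were 18850893 to 24725003 in WT, 17154653 to 19885288 in ONC and 17634077 to 21828251 in ONC-J. Levels are given as CPM, the count relative to the TMM-scaled size of the library, and a difference as the log2 fold change of the edgeR fit. All 6 libraries were retina by their markers: the 15 rod markers summed to 66720 to 69780 CPM in WT and 63260 to 69610 CPM in ONC-J. WT replicate 1 stood apart by lens transcripts, with 1305 CPM of Cryaa, an alpha crystallin of the lens, against 2.54 and 0.738 CPM in the other WT libraries and 2.54, 0.546 and 45.1 CPM in ONC-J. ONC replicate 2 stood apart by genes of reactive gliosis, whose mean log2 difference from WT was 1.78 against 0.21 and 0.77 in the other ONC libraries and 0.58, 1.15 and 0.71 in ONC-J. The counts of called genes and of classes are therefore also given without WT replicate 1 and ONC replicate 2, as are list counts that moved by 2 genes or more, a choice made after seeing the data.

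Of the 19259 genes tested, 696 (3.61%) differed between ONC-J and WT at an adjusted p under 0.05 in edgeR, 358 higher (1.86%) and 338 lower (1.76%) in ONC-J. Of these 696, 624 were protein coding and 131 differed by at least 1 on the log2 scale, 88 higher and 43 lower. In 694 of them the WT range and the ONC-J range were separate, which was also the case for 22.3% of all genes tested. ONC against WT gave 407 genes (2.11%), 184 higher (0.955%) and 223 lower (1.16%). The count for ONC-J against WT was 452 without WT replicate 1, 425 without WT replicate 2 and 379 without ONC-J replicate 2, and 502 without the pair of libraries that stood apart. For ONC against WT it was 271 without ONC replicate 2 and 218 without that pair.

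Of the 407 injury genes, 324 remained in ONC-J, 154 higher and 170 lower, and 311 of them were protein coding. No gene was called in both comparisons with opposite directions. The higher genes stood at a median log2 fold change over WT of 0.82 in ONC-J and 0.70 in ONC, and the lower genes at -0.52 and -0.54. Being called the same way in ONC and ONC-J against the same WT libraries already favors like values in the 2 groups, so the direct comparison with ONC is given as a description. In it none of the 324 was called by edgeR, where 0.125% of all genes were, 25 had an unadjusted p under 0.05 (8.33% over all genes), and DESeq2 called 2 and limma-voom 0. Their median absolute difference from ONC was 0.06, the median standard error was 0.09, and 97.5% of them differed by less than 0.5. By point estimate 166 of the 324 were further from WT in ONC-J than in ONC. The number that remained was 199 without the pair of libraries that stood apart.

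Genes known from injured neurons were among those with the highest fold changes over WT. Sprr1a, a small proline-rich protein known for promoting neurite growth in injured sensory neurons (chr3:92483952-92485895, minus strand in GENCODE M21 on GRCm38), had no count in any WT library and stood at 11.4, 11.3 and 7.11 CPM in ONC-J, at least 62.7-fold above a floor of 3 counts per WT library. After ONC alone it stood at 9.91, 11.1 and 10.9 CPM, within the range of ONC-J. Ecel1, a membrane endopeptidase induced in neurons by nerve injury, stood at 0.0996, 0.368 and 0.527 CPM in WT and 43.2, 26.6 and 26.2 CPM in ONC-J, a log2 fold change of 6.56 with a standard error (SE) of 0.37 (adjusted p = 1.42e-09). Atf3, a transcription factor of the ATF/CREB family that marks injured neurons (chr1:191170296-191218039, minus strand), rose from 4.78, 4.17 and 4.75 CPM in WT to 45.2, 44.4 and 39.8 CPM in ONC-J (log2 3.25, SE 0.16, adjusted p = 2.12e-10). Its ONC libraries stood at 26.9, 37.01 and 28.1 CPM, all below those of ONC-J, and the difference of 0.49 (SE 0.13) did not pass the test (adjusted p = 0.174). Chac1, an enzyme that breaks down glutathione and a target of ATF4 (chr2:119351229-119354381, plus strand), rose from 1.69, 1.68 and 1.05 CPM to 15.2, 15.2 and 17.01 CPM (log2 3.40, SE 0.17, adjusted p = 3.27e-10). For all 4 genes the WT and ONC-J libraries were far apart, with no overlap.

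The stretches of 250 bases before the RefSeq starts of Atf3, Chac1 and Sprr1a are shown because these 3 genes were among those furthest above WT and because the letters bound by ATF and AP-1 factors can be looked for in them. They come from RefSeq on GRCm38.p6 and run 5′ to 3′ on the strand of the gene. Both strands were searched for TGACGTCA, TGACTCA and TGATGNAAN, and matches, which did not overlap each other, are in capitals. The Atf3 stretch lies at chr1:191183334-191183583 on the minus strand, the Chac1 stretch at chr2:119350992-119351241 on the plus strand and the Sprr1a stretch at chr3:92485882-92486131 on the minus strand. The RefSeq start used for Atf3 lies inside the GENCODE interval of the gene.
Atf3: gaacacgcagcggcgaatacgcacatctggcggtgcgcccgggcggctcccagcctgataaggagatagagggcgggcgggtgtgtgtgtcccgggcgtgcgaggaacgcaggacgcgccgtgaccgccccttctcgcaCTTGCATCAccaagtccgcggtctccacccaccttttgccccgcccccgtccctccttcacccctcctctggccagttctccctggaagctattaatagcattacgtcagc
Chac1: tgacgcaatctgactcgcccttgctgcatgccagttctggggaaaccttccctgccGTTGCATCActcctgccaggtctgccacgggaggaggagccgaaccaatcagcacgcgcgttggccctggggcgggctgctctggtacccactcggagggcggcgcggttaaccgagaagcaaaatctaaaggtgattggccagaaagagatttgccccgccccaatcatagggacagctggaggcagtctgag
Sprr1a: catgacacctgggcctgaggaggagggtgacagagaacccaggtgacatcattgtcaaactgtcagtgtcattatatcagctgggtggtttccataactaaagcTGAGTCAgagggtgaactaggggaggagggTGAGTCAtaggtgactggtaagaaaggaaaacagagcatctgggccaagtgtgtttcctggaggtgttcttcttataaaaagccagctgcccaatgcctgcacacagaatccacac
Atf3 held 1 match to TGATGNAAN on the opposite strand, 111 to 103 bases before the start, and Chac1 held 1 match at 194 to 186 bases. Sprr1a held 2 matches to TGACTCA, at 146 to 140 and 116 to 110 bases. Of 32851 stretches of the same length before RefSeq starts, 3.44% held TGATGNAAN, 4.46% held TGACTCA and 1.55% held TGACGTCA. A match is a run of letters only, and binding was not measured. The stretch of Odc1, described below among the genes absent after crush alone, was also searched and held no match.

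**Figure D1:**
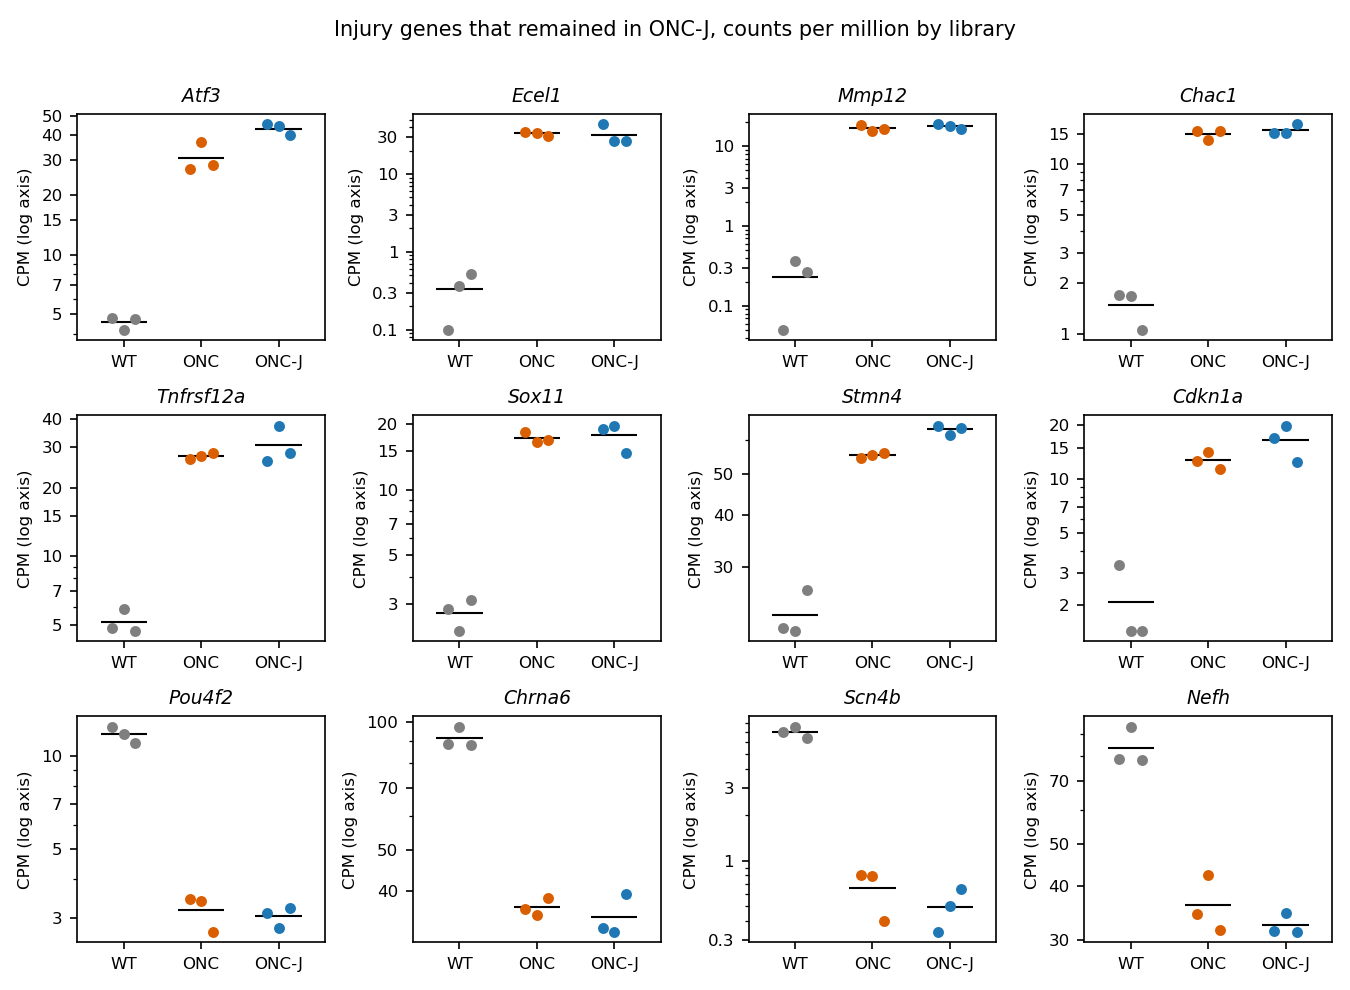
CPM (log axis) in each library of WT, ONC and ONC-J for 12 genes whose change after crush remained under BL1, with a line at the mean of each group of 3 libraries. In each panel the WT points are separate from both injured groups, as for Atf3 and Ecel1 above and Scn4b and Pou4f2 below WT.

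Of 28 tested genes of axon injury and regeneration, 15 were higher and 1 lower in ONC-J than in WT, with a median of 0.53, and after ONC 14 were higher and 1 lower, with a median of 0.54. Over all genes the median was -0.01. Sox11, a transcription factor that drives axon growth programs, stood at 2.84, 2.25 and 3.11 CPM in WT and 18.98, 19.7 and 14.7 CPM in ONC-J (log2 2.71, SE 0.21, adjusted p = 1.57e-07). Tnfrsf12a, the receptor of the cytokine TWEAK, stood at 4.83, 5.85 and 4.69 CPM in WT and 26.1, 37.4 and 28.4 CPM in ONC-J (log2 2.57, SE 0.15, adjusted p = 2.12e-09). Neither gene had overlapping libraries. Jun, the AP-1 factor downstream of the JNK kinases, rose by a smaller 0.83 (SE 0.07), from 42.9, 44.4 and 50.6 CPM to 79.4, 75.5 and 89.8 CPM, and Gap43, a growth cone protein, by 0.43 (SE 0.07). Stmn4, a stathmin that binds tubulin, rose by 1.47 (SE 0.09, adjusted p = 5.58e-09), with ONC-J at 65.1, 61.9 and 64.2 CPM, above all ONC libraries at 54.5, 55.5 and 55.9 CPM. That last difference did not pass the test (log2 0.20, SE 0.09, adjusted p = 0.547). Leaving out 1 library at a time gave 12 to 15 higher genes. The lower gene was Mapk10, the neuronal kinase JNK3, whose call was lost without WT replicate 2, without ONC-J replicate 1 and without the pair that stood apart.

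Some neuropeptide genes rose as well. Of 16 tested, 4 were higher in ONC-J, among them Adcyap1, which encodes PACAP, at 1.94, 2.25 and 2.58 CPM in WT and 9.72, 7.503 and 8.45 CPM in ONC-J (log2 1.92, SE 0.17, adjusted p = 7.4e-07). Tac1, the precursor of substance P, rose by 0.81 (SE 0.08) and Crh, corticotropin-releasing hormone, by 1.83 (SE 0.33). The 3 genes rose after ONC too, by 2.03, 0.76 and 1.60. The other higher gene in ONC-J, Cartpt, lost its call without WT replicate 2, WT replicate 3 or ONC-J replicate 1. After ONC 3 genes of the list were higher and 1 lower than in WT. The median of the list was 0.21 in ONC-J and -0.02 in ONC.

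The integrated stress response was the list with the largest share of members called higher. In ONC-J 24 of 32 genes were higher than in WT, with a median of 0.77, and 19 were higher after ONC, with a median of 0.65. No member was called lower by edgeR, DESeq2 or limma-voom, and 1 was lower at an unadjusted p under 0.05, which over all genes tested was the case for 16.9%, 8.16% higher and 8.72% lower. Leaving out 1 library at a time gave 22 to 24 genes, and leaving out the pair that stood apart gave 23. Enzymes of serine and asparagine synthesis were among them. Phgdh, the first enzyme of serine synthesis, stood at 6.48, 3.77 and 2.9 CPM in WT and 18.1, 16.6 and 19.4 CPM in ONC-J (log2 2.04, SE 0.19, adjusted p = 7.22e-07). Asns, asparagine synthetase, stood at 22.7, 22.2 and 24.3 CPM in WT and 42.99, 44.4 and 42.4 CPM in ONC-J (log2 0.91, SE 0.07, adjusted p = 1.75e-07). Neither overlapped between groups, and their log2 fold changes after ONC were 2.19 and 0.87.

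Some members of this list stood further from WT in ONC-J than in ONC. Slc7a1, a transporter of cationic amino acids, stood at 21.9, 22.5 and 19.7 CPM in WT, 33.5, 35.2 and 35.6 CPM in ONC and 55.9, 62.9 and 34.9 CPM in ONC-J. Its log2 fold change was 1.26 in ONC-J (SE 0.16, adjusted p = 4.77e-05) and 0.70 in ONC. ONC-J replicates 1 and 2 were above all ONC libraries and replicate 3 was among them, and the direct difference of 0.56 (SE 0.15) did not pass the test (adjusted p = 0.204). Mthfd2, an enzyme of mitochondrial folate metabolism, was called in ONC-J and not in ONC, at 7.77, 8.103 and 7.33 CPM in WT and 24.6, 20.8 and 15.5 CPM in ONC-J (log2 1.39, SE 0.23, adjusted p = 0.00124), with 12.5, 14.8 and 12.2 CPM in between (adjusted p = 0.145). Its ONC-J libraries all stood above its ONC libraries, by 0.63 (SE 0.22, adjusted p = 0.431). Slc7a5, the light chain of a transporter of large neutral amino acids, rose by 1.06 in ONC-J and 0.70 in ONC, and its direct difference of 0.36 (SE 0.11) also did not pass (adjusted p = 0.299). Over the list, 0 of 32 genes were called between ONC-J and ONC by edgeR, DESeq2 or limma-voom, and the median difference was 0.05. At an unadjusted p under 0.05, 7 were higher and 0 lower in ONC-J than in ONC, where 8.33% of all genes differed in either direction. Atf4 itself stood at 207, 229.8 and 213 CPM in WT and 330.2, 275 and 268 CPM in ONC-J (log2 0.42, SE 0.09, adjusted p = 0.00951) and was not called after ONC (log2 0.19, adjusted p = 0.455). Its call in ONC-J was lost without WT replicate 1 (adjusted p = 0.0536), without ONC-J replicate 1 (adjusted p = 0.065) and without the pair that stood apart (adjusted p = 0.0501).

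**Figure D2:**
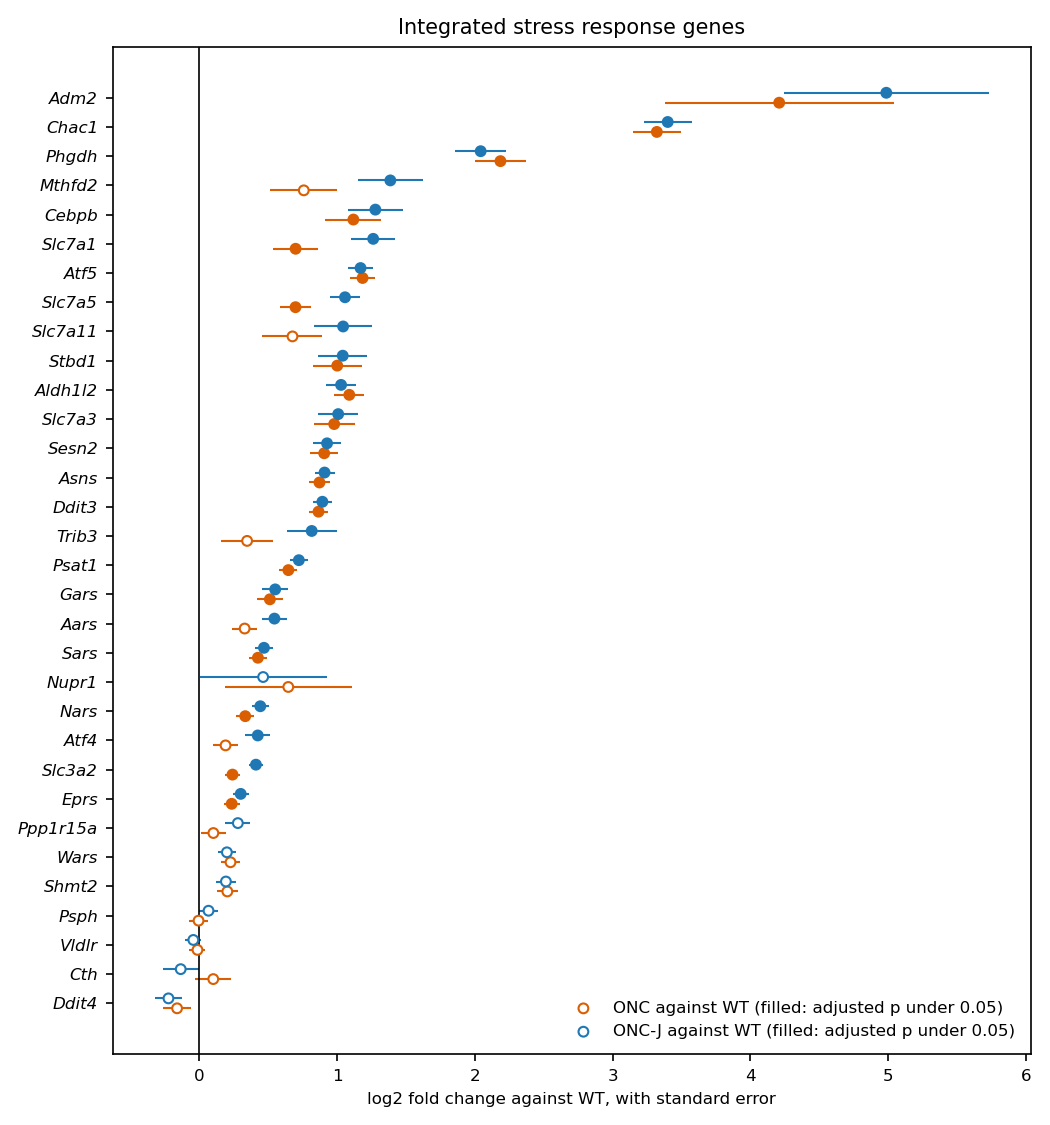
Log2 fold change against WT, with its SE, of the 32 tested genes of the integrated stress response in ONC-J and in ONC, filled where the adjusted p was under 0.05. The ONC-J points are filled for 24 genes and the ONC points for 19, and Adm2, with few counts, carries the widest error bars.

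Some genes of the BCL2 family and the p53 response were higher. Of 25 tested, 7 were higher in ONC-J and 4 after ONC, with medians of 0.21 and 0.14. Over all genes tested, 1.86% were called higher in ONC-J and 0.955% after ONC. The count for ONC-J was 5 without WT replicate 2 or without ONC-J replicate 2. At an unadjusted p under 0.05, 10 were higher and 2 lower in ONC-J than in WT, against 8.16% and 8.72% of all genes. Cdkn1a, the cell cycle inhibitor p21 and a p53 target, stood at 3.34, 1.43 and 1.42 CPM in WT and 17, 19.9 and 12.5 CPM in ONC-J (log2 3.01, SE 0.25, adjusted p = 2.09e-07). Hrk, a BH3-only protein that promotes apoptosis of neurons, stood at 2.19, 2.005 and 1.898 CPM in WT and 15.1, 13.3 and 10.8 CPM in ONC-J (log2 2.68, SE 0.21, adjusted p = 1.13e-07). Bbc3, which encodes the BH3-only protein PUMA, stood at 3.79, 5.197 and 6.697 CPM in WT and 10.1, 10.4 and 8.34 CPM in ONC-J (log2 0.88, SE 0.18, adjusted p = 0.0077). For each of these 3 genes all WT libraries lay below all ONC-J libraries, and the genes had risen after ONC by 2.64, 2.70 and 0.73.

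RGC markers were the main group that was lower. Of 26 tested, 20 were lower and 1 higher in ONC-J than in WT, with a median of -0.84, and after ONC 21 were lower and 1 higher, with a median of -0.87. The summed level of the list was 1351 to 1431 CPM in WT, 893 to 916 CPM in ONC-J and 857 to 908 CPM in ONC. In bulk retina, fewer RGCs and less RNA per RGC cannot be told apart. Pou4f2, the transcription factor BRN3B that specifies RGCs (chr8:78433010-78436645, minus strand), stood at 12.4, 11.8 and 11.02 CPM in WT and 3.11, 2.77 and 3.23 CPM in ONC-J (log2 -1.96, SE 0.24, adjusted p = 3.36e-05). Pou4f1, its relative BRN3A, stood at 31.3, 32.3 and 31.2 CPM in WT and 17.3, 14.1 and 16.9 CPM in ONC-J (log2 -0.98, SE 0.11, adjusted p = 2.15e-05). The WT and ONC-J libraries did not overlap for either gene. Sncg, gamma-synuclein, fell by 1.30 (SE 0.12) and Thy1, a surface glycoprotein of RGC membranes, by only 0.33 (SE 0.06). The member that rose was Gap43, described above among the growth genes. Leaving out 1 library at a time gave 18 to 20 lower genes, and leaving out the pair that stood apart gave 18.

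Some genes of channels, receptors and the neuronal cytoskeleton were lower as well. Scn4b, an auxiliary subunit of sodium channels, had the largest fall among the injury genes that remained, from 7.02, 7.57 and 6.38 CPM in WT to 0.339, 0.5002 and 0.646 CPM in ONC-J (log2 -3.80, SE 0.47, adjusted p = 4.24e-05), with ONC at 0.8005, 0.792 and 0.401 CPM. Of 30 voltage-gated sodium and potassium channel genes, 8 were lower in ONC-J and 9 after ONC, and the count for ONC-J was 5 without WT replicate 2 and 6 without the pair that stood apart. Chrna6, a nicotinic acetylcholine receptor subunit, stood at 88.8, 97.4 and 88.3 CPM in WT and 32.8, 32.01 and 39.4 CPM in ONC-J (log2 -1.40, SE 0.12, adjusted p = 6.66e-07). Htr1b, a serotonin receptor, stood at 8.22, 9.09 and 8.12 CPM in WT and 1.19, 2.501 and 0.861 CPM in ONC-J (log2 -2.44, SE 0.32, adjusted p = 7.63e-05). Neither overlapped between WT and ONC-J. Of 33 cytoskeleton genes, 11 were lower and 2 higher in ONC-J and the same numbers after ONC, with 8 lower in ONC-J without the pair that stood apart. Nefh, the heavy neurofilament subunit of large axons, fell from 79.1, 93.8 and 78.7 CPM to 31.5, 34.6 and 31.2 CPM (log2 -1.37, SE 0.13, adjusted p = 1.32e-06), and Tubb3, a neuronal beta-tubulin, fell by 0.81 (SE 0.09). Of 36 receptors and scaffolds of the postsynapse, 6 were lower and 1, the nicotinic receptor subunit Chrna3, was higher, a call lost without WT replicate 3 and without ONC-J replicate 3. Without WT replicate 1, without WT replicate 2 and without the pair that stood apart, 3 of the list were lower.

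Few markers of microglia and genes of reactive gliosis passed the test, while more were higher at an unadjusted p. Mmp12, the macrophage metalloelastase, stood at 0.0498, 0.368 and 0.264 CPM in WT and 18.9, 18.1 and 16.7 CPM in ONC-J (log2 6.21, SE 0.28, adjusted p = 1.09e-10) and at 18.4, 15.6 and 16.8 CPM after ONC. Cd68, a lysosomal protein of phagocytes, stood at 2.14, 2.37 and 1.898 CPM in WT and 5.14, 4.87 and 5.28 CPM in ONC-J (log2 1.24, SE 0.21, adjusted p = 0.00121). Both were separate from WT in every library. They were among 3 of 23 microglia and macrophage markers that were higher in ONC-J, and the summed level of that list was 100 to 101.9 CPM in WT, 143.9 to 157.5 in ONC-J and 135.7 to 233.7 in ONC. Of 21 genes of reactive gliosis, 4 were higher in ONC-J (median 0.92) and 3 in ONC (median 1). At an unadjusted p under 0.05, 14 of the 21 gliosis genes and 8 of the 23 microglia and macrophage markers were higher and none lower, against 8.16% and 8.72% of all genes, and all 21 gliosis genes lay above WT. DESeq2 called 3 gliosis genes and 5 microglia markers higher and limma-voom 4 of each. The gliosis count was 2 without WT replicate 1 and without WT replicate 3, 1 without ONC-J replicate 2, 9 without ONC replicate 2 and 7 without the pair that stood apart, and the microglia count was 5 without ONC replicate 1 and 6 without ONC replicate 2. Gfap, the intermediate filament of astrocytes and reactive Mueller glia, stood at 23.8, 30.98 and 29.9 CPM in WT, 34.6, 142 and 59.5 CPM in ONC and 52.8, 75.8 and 58.95 CPM in ONC-J, and its log2 difference of 1.15 from WT (SE 0.39) did not pass the test (adjusted p = 0.116), but passed without ONC replicate 2 (adjusted p = 0.0226). Gfap was named after its values were seen. None of 15 genes of Mueller glia and astrocyte identity was called in ONC-J by edgeR, DESeq2 or limma-voom, 2 were higher at an unadjusted p under 0.05, and edgeR called 1 higher without the pair that stood apart.

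Some genes of adhesion rose to a smaller extent. Of 31 integrin and focal adhesion genes, 8 were higher in ONC-J and 6 in ONC, and the count for ONC-J was 5 without WT replicate 2 or without ONC-J replicate 2. Itga5, an integrin subunit that binds fibronectin, stood at 3.64, 2.58 and 3.16 CPM in WT and 6.44, 7.32 and 5.97 CPM in ONC-J (log2 1.08, SE 0.16, adjusted p = 0.000308). Zyx, the focal adhesion protein zyxin, rose by 0.60 (SE 0.08). Of 32 genes of the extracellular matrix and its proteases, 4 were higher, Mmp12, Spp1, Plat and Timp3, and 2 were lower, the gelatinase Mmp9 and the hyaluronan link protein Hapln1. The lower count was 0 without ONC-J replicate 2 or ONC-J replicate 3 and 1 without WT replicate 1, WT replicate 2 or the pair that stood apart. Plat, the tissue plasminogen activator, stood at 9.46, 8.43 and 10.4 CPM in WT and 16.6, 27.1 and 18.4 CPM in ONC-J (log2 1.14, SE 0.15, adjusted p = 5.61e-05), and ONC-J replicate 2 was its highest library. None of Itga5, Zyx and Plat had overlapping WT and ONC-J libraries.

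Few markers of the other retinal cell types were called. In ONC-J against WT, edgeR called 2 of 12 cone, 1 of 15 bipolar and 1 of 15 amacrine cell markers, all lower in ONC-J. They were Arr3 and Kcne2 of cones, Grm6 of bipolar cells and Calb2 of amacrine cells, the last also made by RGCs, and were named after their values were seen. At an unadjusted p under 0.05, 6 of the cone and 4 of the bipolar markers were lower and none higher, and 1 amacrine marker was lower and 1 higher, against 8.72% lower and 8.16% higher over all genes. The cone count was 0 without WT replicate 2 and 1 without ONC-J replicate 1 or 2, and the bipolar count was 0 without WT replicate 1 or 2, ONC replicate 1 or 3 or ONC-J replicate 1 or 2, and without the pair that stood apart. Of 15 rod markers edgeR called 0, while 2 were higher and 2 lower at an unadjusted p under 0.05, and DESeq2 and limma-voom called 1 higher and 1 lower. Of 6 horizontal cell markers edgeR, DESeq2 and limma-voom called 0, with 2 lower at an unadjusted p under 0.05. For the lens, which lies next to the retina, the summed markers ranged over 26.8 to 3128 CPM in WT and 32.5 to 163 CPM in ONC-J. No lens gene was called by the 3 tools, 11 of 14 were lower in ONC-J at an unadjusted p under 0.05, and the edgeR fits without WT replicate 2 or 3 called 9 of them lower. Without WT replicate 1 the log2 difference of Cryaa was 3.22 in place of -4.79, and neither was called.

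Some other groups moved in part. Of 22 antioxidant and glutathione genes, 4 were higher in ONC-J and 3 in ONC, with 2 in ONC-J when its replicate 2 was left out. Srxn1, sulfiredoxin, which repairs oxidized peroxiredoxins, stood at 55.6, 55.6 and 58.95 CPM in WT and 122, 139 and 114 CPM in ONC-J (log2 1.14, SE 0.08, adjusted p = 1.26e-08) with no overlap. Of 22 immediate early genes, 6 were higher in ONC-J and 3 in ONC, and the count for ONC-J was 2 without WT replicate 2, 3 without ONC-J replicate 2 and 4 without the pair that stood apart. Of 22 genes of cholesterol synthesis, 2 were lower in ONC-J and 5 in ONC, and the count for ONC-J was 6 without WT replicate 2. DESeq2 called 3 lower in ONC-J and limma-voom 4. At an unadjusted p under 0.05, 9 were lower and 0 higher in ONC-J than in WT, against 8.72% and 8.16% of all genes. Between ONC-J and ONC, 0 differed at that unadjusted p. Of 24 interferon-stimulated and antigen presentation genes none was called by edgeR, DESeq2 or limma-voom, and 4 were higher in ONC-J at an unadjusted p under 0.05.

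**Figure D3:**
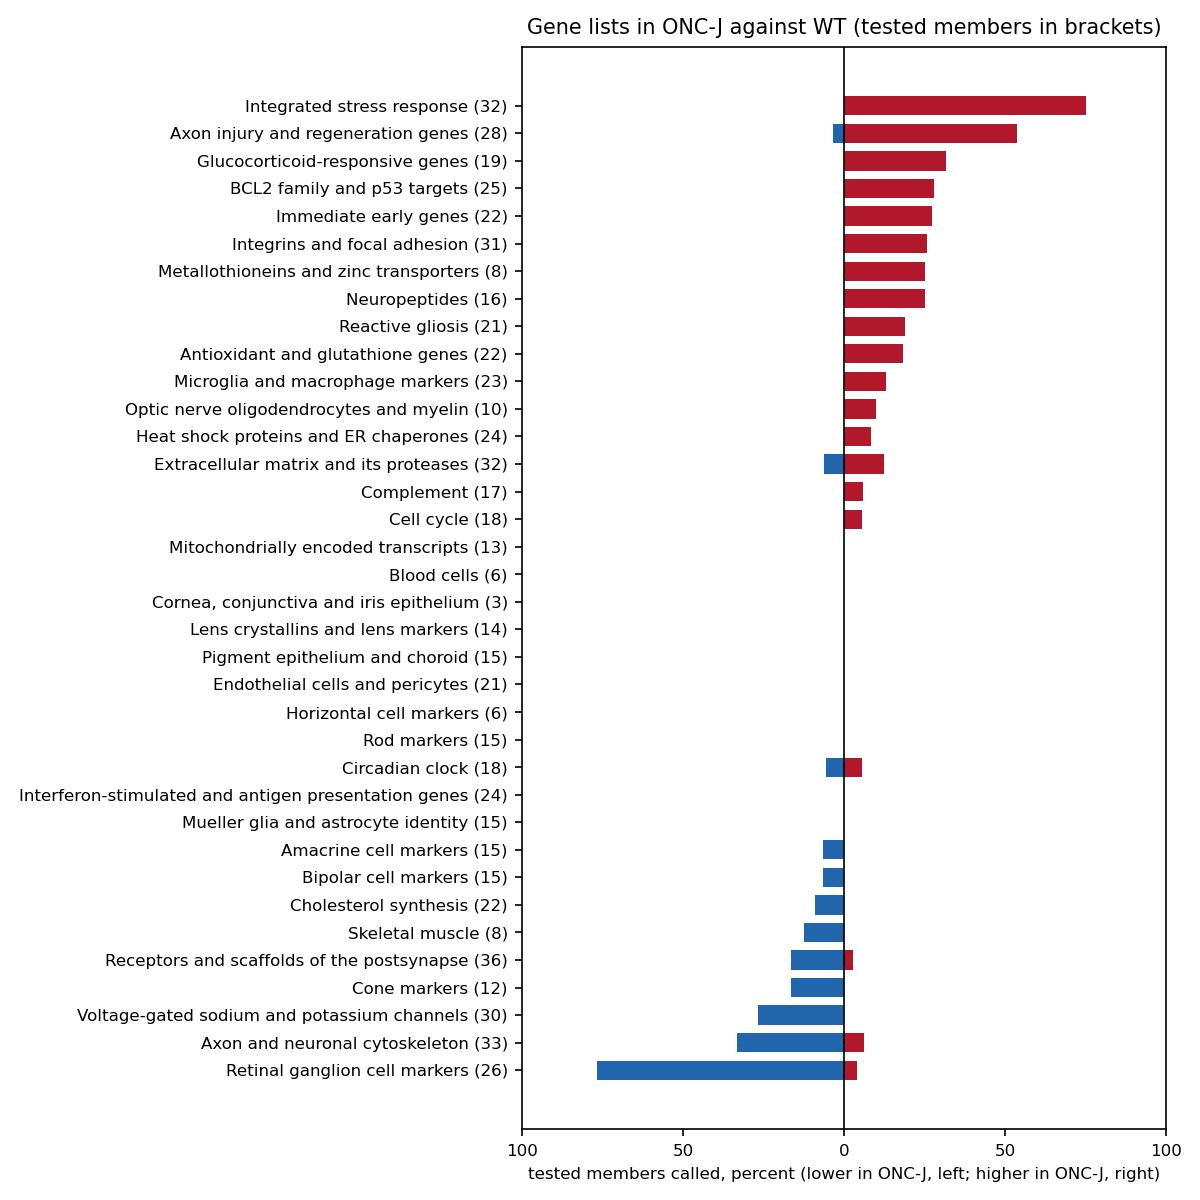
Percent of the tested genes of each list that were called higher or lower in ONC-J than in WT. The integrated stress response had the largest share higher (24 of 32) and RGC markers the largest share lower (20 of 26), while rod and horizontal cell markers had none.

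Of the 696 genes called in ONC-J against WT, 171 were absent after crush alone, 92 higher and 79 lower, and 201 lay between, not called in ONC but with an unadjusted p there under 0.05. Of these 171 genes, 134 were protein coding. The 92 higher genes had a median log2 fold change over WT of 0.42 in ONC-J and 0.08 in ONC, and the 79 lower genes of -0.39 and -0.12. The class rests on a p above a threshold in ONC, and being called in ONC-J and not in ONC already favors a difference between these same libraries, so the direct comparison with ONC is given as a description. In it edgeR called 14 of the 171, 12 higher and 2 lower (0.125% over all genes), and 150 had an unadjusted p under 0.05 (8.33% over all genes). DESeq2 called 39 and limma-voom 17. By sign, 144 of the 171 were on the same side of WT in ONC. The number absent after crush alone was 76 without WT replicate 1, 63 without WT replicate 2, 84 without WT replicate 3, 275 without ONC replicate 2 and 52 without ONC-J replicate 2, and 144 without the pair of libraries that stood apart.

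Among the genes absent after crush alone that were also called against ONC, Btg3, an antiproliferative protein of the BTG/TOB family (chr16:78332637-78377192, minus strand), stood at 6.83, 7.74 and 7.22 CPM in WT, 8.81, 8.15 and 8.65 CPM in ONC and 12.1, 14.96 and 12.2 CPM in ONC-J. It was higher in ONC-J than in WT (log2 0.85, SE 0.11, adjusted p = 8.62e-05) and than in ONC (log2 0.62, SE 0.11, adjusted p = 0.0296). Mal, a proteolipid of myelin and of epithelial membranes (chr2:127633226-127656695, minus strand), stood at 3.34, 2.42 and 1.95 CPM in WT, 3.502, 3.0 and 2.52 CPM in ONC and 6.67, 7.32 and 5.17 CPM in ONC-J, which was 1.31 over WT (SE 0.20, adjusted p = 0.000344) and 1.08 over ONC (SE 0.20, adjusted p = 0.0296). For both genes every ONC-J library was above every WT and ONC library. Mal was the only one of 10 markers of oligodendrocytes and myelin that was called, and the summed level of that list was 83.5 to 91.3 CPM in WT, 84.2 to 90.8 in ONC and 89.2 to 91.2 in ONC-J.

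Odc1, ornithine decarboxylase, the rate-limiting enzyme of polyamine synthesis (chr12:17544794-17551505, plus strand), stood at 129.7, 120.1 and 122 CPM in WT, 127, 129 and 120.5 CPM in ONC and 189.8, 159.7 and 177 CPM in ONC-J. It was 0.50 over WT (SE 0.08, adjusted p = 0.000833) and 0.48 over ONC (SE 0.08, adjusted p = 0.0214), with no overlap with either group. Zranb1, a deubiquitinase, Sun2, a nuclear envelope protein that links the nucleus to the cytoskeleton, Sesn1, a sestrin induced by p53, and Hspa14, a chaperone that works at the ribosome, were higher in ONC-J than in WT by 0.40, 0.42, 0.35 and 0.32 and higher than in ONC by 0.36, 0.44, 0.40 and 0.31, with SEs of 0.06 to 0.08. Ebpl, a relative of the sterol isomerase EBP, stood at 163, 146 and 134 CPM in WT, 140.4, 129.8 and 136 CPM in ONC and 191, 236 and 189.9 CPM in ONC-J, 0.48 over WT (SE 0.09) and 0.61 over ONC (SE 0.09, adjusted p = 0.0125).

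Most calls against ONC did not hold in every alternative fit, which left out libraries or changed the tool, filter, scaling or model. Fits without 1 library also have fewer libraries, and why calls were lost in them was not tested. Of the 22 named genes called against ONC, 20 lost the call in at least 1 of 18 alternatives. These 22 include genes named after their values were seen. The pseudogenes Gm7336 and Gm6485 kept the call in all 18 alternatives, at adjusted p of 0.0347 or less. Leaving out 1 library at a time gave 2 to 61 genes called between ONC-J and ONC in place of 24, with 37 without WT replicate 3, 13 without ONC replicate 1, 7 without ONC replicate 2, 2 without ONC replicate 3, 5 without ONC-J replicate 2 and 61 without ONC-J replicate 3, and 8 without the pair that stood apart. Btg3 missed the threshold without ONC replicate 1, 2 or 3 and without ONC-J replicate 2, at adjusted p of 0.0808 to 0.205, Mal without any 1 ONC library and without ONC-J replicate 1 or 2, at 0.0562 to 0.205, and Odc1 without any 1 ONC library and without ONC-J replicate 1, at 0.0575 to 0.112. Ebpl missed it without ONC replicate 3 (adjusted p = 0.0572) and without ONC-J replicate 2 (adjusted p = 0.0626). Zranb1, Sun2, Sesn1 and Hspa14 missed it without any 1 ONC library, Zranb1, Sun2 and Hspa14 also without ONC-J replicate 1, Zranb1, Sesn1 and Hspa14 without ONC-J replicate 2, and Hspa14 without WT replicate 1 or 2, at adjusted p of 0.0575 to 0.227. The point estimates of Btg3, Mal, Odc1 and Ebpl stayed above 0 in these fits, from 0.42 for Odc1 to 1.21 for Mal.

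**Figure D4:**
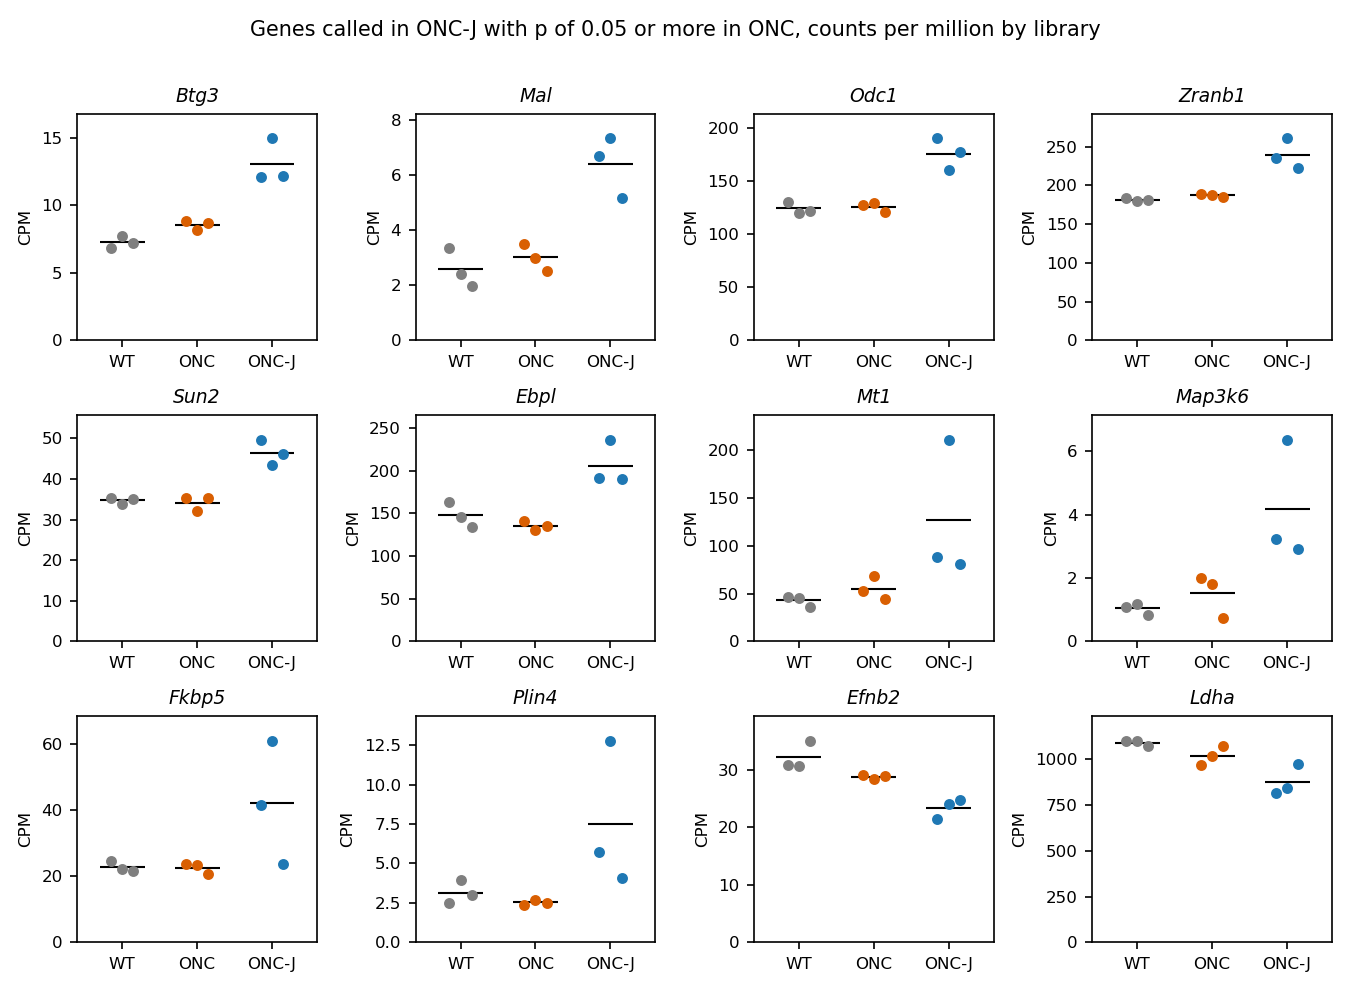
CPM (linear axis from 0) in each library of WT, ONC and ONC-J for 12 genes that were called in ONC-J against WT and absent after crush alone, with a line at the mean of each group of 3 libraries. For Btg3, Mal and Odc1 all ONC-J points lie above all WT and ONC points, while for Fkbp5 and Plin4 ONC-J replicate 2 lies well above the other ONC-J libraries.

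Genes that respond to glucocorticoids were among those higher in ONC-J. Of 19 tested, 6 were higher in ONC-J than in WT, with a median of 0.49, against 1 after ONC, with a median of -0.02. The 6 genes were Cdkn1a, Mt1, Per1, Plin4, Mertk and Fkbp5, and Cdkn1a had risen after ONC as well. The other 13 were not called, and 15 of the 19 lay above WT. Tsc22d3 and Sgk1, which also respond to glucocorticoids and were named after their values were seen, were not called in any of 20 alternatives. Their log2 differences of ONC-J from WT in these were 0.06 to 0.141 and -0.143 to -0.035. Mt1, a metallothionein that binds zinc, stood at 46.5, 45.4 and 36.3 CPM in WT, 52.6, 68.1 and 44.1 CPM in ONC and 87.7, 211 and 81.2 CPM in ONC-J (log2 over WT 1.57, SE 0.26, adjusted p = 0.00116). Its difference from ONC of 1.21 (SE 0.26) did not pass the test (adjusted p = 0.0914). ONC-J replicate 2 was by far the highest library, and the other ONC-J libraries were also above all WT and ONC libraries. Fkbp5, a chaperone of the glucocorticoid receptor and one of its targets, stood at 24.7, 22.1 and 21.7 CPM in WT, 23.7, 23.4 and 20.6 CPM in ONC and 41.7, 61.03 and 23.8 CPM in ONC-J, where replicate 3 was close to the ONC and WT libraries. The adjusted p of Fkbp5 was 0.047 against WT and rose to 0.342 without ONC-J replicate 2. The calls of Per1, Plin4, Mertk and Fkbp5 were each lost in at least 4 of the 9 fits without 1 library, among them those without WT replicate 2 and without WT replicate 3. The mean score of the list relative to WT was 0.60, 0.83 and 0.39 in ONC-J and 0.10, 0.30 and 0.16 in ONC. The count of 6 was 2 without WT replicate 2 or without WT replicate 3. It was 3 without ONC-J replicate 1 and 4 without the pair that stood apart. Between ONC-J and ONC, edgeR and limma-voom called no gene of the list and DESeq2 called 2. At an unadjusted p under 0.05, 9 were higher and 1 lower in ONC-J than in ONC, where 8.33% of all genes differed in either direction. The methods state xylazine and ketamine before needling in ONC-J mice, without saying if they were given before every treatment, and the part of the anesthesia was not tested.

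Map3k6, a stress-activated kinase, stood at 1.096, 1.19 and 0.844 CPM in WT, 2.001, 1.81 and 0.745 CPM in ONC and 3.22, 6.37 and 2.91 CPM in ONC-J (log2 over WT 2.0, SE 0.33, adjusted p = 0.00115), again with ONC-J replicate 2 highest and no overlap with either group. Timp3, an inhibitor of metalloproteinases, rose by 0.44 over WT (SE 0.09), from 49.6, 54.3 and 48.6 CPM in WT and 49.7, 49.8 and 54.8 CPM in ONC to 63.05, 78.2 and 66.2 CPM in ONC-J. The differences of these genes from ONC had adjusted p of 0.0989 and 0.0769.

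Among the lower genes of this class, Efnb2, the ligand ephrin-B2, stood at 30.9, 30.6 and 35.1 CPM in WT, 29.1, 28.4 and 29 CPM in ONC and 21.5, 24.1 and 24.8 CPM in ONC-J (log2 -0.46 against WT, SE 0.09, adjusted p = 0.00387). Ldha, the lactate dehydrogenase subunit of glycolytic cells, stood at 1099, 1096 and 1071 CPM in WT, 966, 1014 and 1070.0 CPM in ONC and 813, 838 and 969.7 CPM in ONC-J (log2 -0.32 against WT, SE 0.06, adjusted p = 0.00548). The ONC-J libraries lay below all WT libraries for both genes. Slitrk2, a synaptic adhesion protein, fell by 0.33 against WT (SE 0.07), Chst3, a chondroitin sulfotransferase, by 0.48 (SE 0.09), and Rgs11, a regulator of G protein signaling in ON bipolar cells, by 0.29 (SE 0.06). None of these 5 genes was called between ONC-J and ONC, with adjusted p of 0.077 to 0.333. The lower gene with the firmest call against ONC was the processed pseudogene Gm7336, at 26, 21.8 and 27.6 CPM in WT, 24.3, 24.8 and 25.8 CPM in ONC and 10.1, 14.8 and 14.4 CPM in ONC-J (-0.93 against ONC, SE 0.12, adjusted p = 0.0042), and its reads may come from its parent gene or other copies.

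Of the 407 injury genes, 83 were no longer called in ONC-J, 30 of them higher and 53 lower after ONC. In 77 of the 83 the ONC-J value still lay on the same side of WT, and in 66 it did so with an unadjusted p under 0.05. The median of the 30 higher genes was 0.87 in ONC and 0.41 in ONC-J, and that of the 53 lower genes was -0.37 and -0.21. Being called in ONC and not in ONC-J already favors a difference between these libraries, and the direct comparison is again a description. In it edgeR called 2 of the 83 (0.125% over all genes), with 23 at an unadjusted p under 0.05 (8.33% over all genes). DESeq2 called 7 and limma-voom 2. The number no longer called was 45 without WT replicate 1, 32 without ONC replicate 2, 49 without ONC replicate 3, 158 without ONC-J replicate 2 and 19 without the pair of libraries that stood apart.

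The 2 genes called against ONC were Penk and Slc6a13. Penk, the precursor of enkephalin peptides (chr4:4133531-4138819, minus strand), stood at 23.8, 31.9 and 25.6 CPM in WT, fell to 12.2, 11.2 and 10.4 CPM in ONC and stood at 23.7, 35.1 and 31.3 CPM in ONC-J. It fell by 1.27 on the log2 scale after ONC (adjusted p = 0.00161), differed from WT by 0.15 in ONC-J (SE 0.20, adjusted p = 0.773), and was 1.42 higher in ONC-J than in ONC (SE 0.22, adjusted p = 0.0125). Slc6a13, the GABA transporter GAT2, stood at 11.3, 8.88 and 11.6 CPM in WT, 5.904, 5.72 and 6.76 CPM in ONC and 11.2, 12.9 and 14.2 CPM in ONC-J, 1.06 higher in ONC-J than in ONC (SE 0.17, adjusted p = 0.0146). For both genes the ONC libraries lay below all others and the WT and ONC-J libraries overlapped. The direct call of Penk was lost without ONC replicate 3 (adjusted p = 0.0648) and without ONC-J replicate 2 (adjusted p = 0.0626), and that of Slc6a13 without any 1 ONC library or ONC-J replicate 2 (adjusted p of 0.0572 to 0.0682). The SE of the difference of Penk from WT in ONC-J exceeded the difference, and that of Slc6a13 was 0.16 for a difference of 0.28, so neither a difference from WT nor equality with WT was shown.

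Other genes no longer called lay between ONC and WT without differing from ONC past the test. Mt3, a metallothionein of neurons and glia, stood at 16.7, 19.9 and 16.5 CPM in WT, 9.36, 11.8 and 9.57 CPM in ONC and 14.1, 17.6 and 13.5 CPM in ONC-J, with a difference from ONC of 0.56 (SE 0.14, adjusted p = 0.147). Calb1, the calcium-binding protein calbindin, fell after ONC to 53.7, 48.3 and 54.5 CPM from 60.9, 74.1 and 67.5 CPM and stood at 59.04, 60.8 and 61.3 CPM in ONC-J (difference from ONC 0.21, SE 0.07, adjusted p = 0.384). Both sets of ONC-J libraries were above those of ONC. Among genes that rose after ONC, Hipk4, a protein kinase, stood at 8.17, 8.55 and 7.699 CPM in WT, 12.9, 11.6 and 13.01 CPM in ONC and 11.6, 9.19 and 11.1 CPM in ONC-J, and Egr3, an immediate early transcription factor, at 1.54, 0.696 and 1.42 CPM, 3.302, 3.17 and 2.35 CPM and 2.77, 2.46 and 1.99 CPM. Lgals3, the galactoside-binding protein galectin-3 of phagocytes and reactive glia, stood at 1.99, 0.737 and 1.002 CPM in WT, 2.25, 12.7 and 2.81 CPM in ONC and 1.92, 2.41 and 2.26 CPM in ONC-J, where ONC replicate 2, the library with high gliosis genes, was far above the other ONC libraries. Without ONC-J replicate 2 Hipk4 was called in ONC-J against WT (adjusted p = 0.0338), and without the pair that stood apart Lgals3 was (adjusted p = 0.0075).

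**Figure D5:**
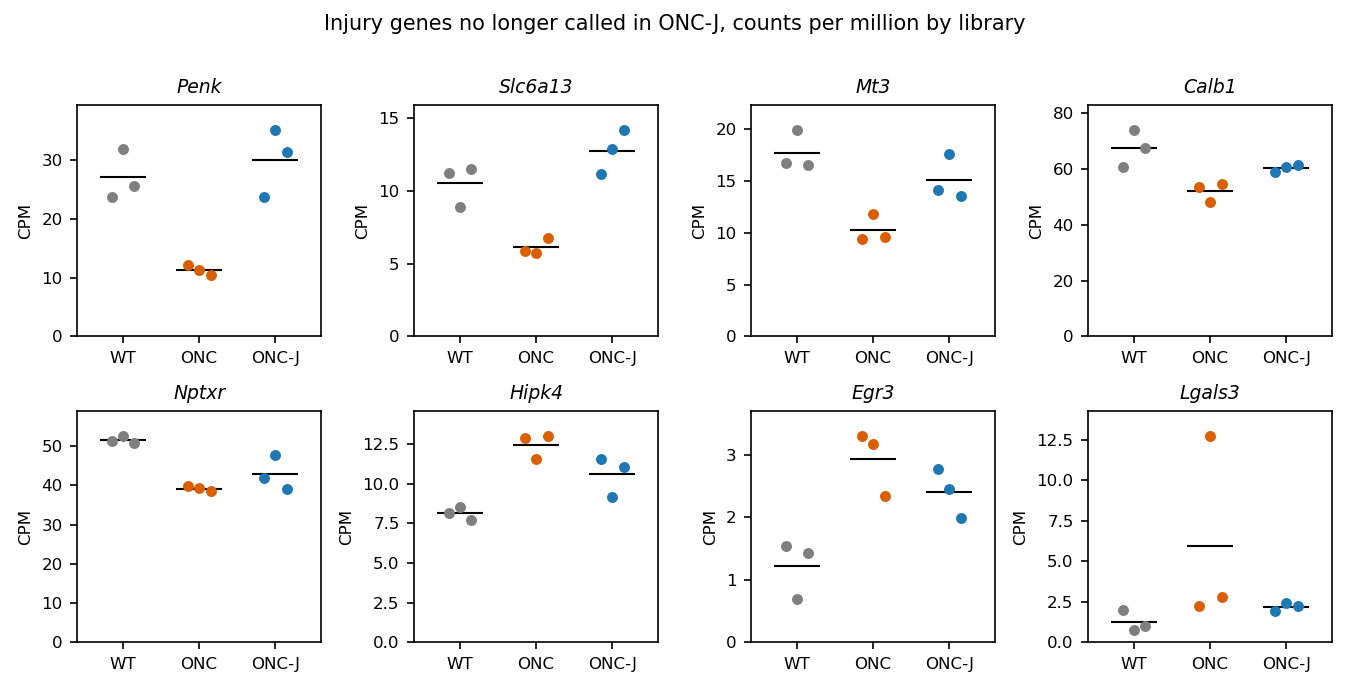
CPM (linear axis from 0) in each library of WT, ONC and ONC-J for 8 injury genes that were no longer called in ONC-J, with a line at the mean of each group of 3 libraries. For Penk and Slc6a13 all ONC points lie below all other points, and for Lgals3 ONC replicate 2 lies far above every other library.

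Called between ONC-J and ONC without being called against WT in either group were, among others, Cldn1, a tight junction protein, at 2.94, 4.54 and 3.01 CPM in WT, 2.45, 2.04 and 1.605 CPM in ONC and 5.14, 5.18 and 5.28 CPM in ONC-J (1.35 over ONC, SE 0.22, adjusted p = 0.0146), and Fam107a, an actin-binding protein induced by stress and glucocorticoids, at 16.99, 13.1 and 12.6 CPM, 11.1, 6.85 and 10.7 CPM and 22.3, 28.2 and 18.5 CPM (1.27 over ONC, SE 0.20, adjusted p = 0.0146). In both genes the ONC libraries were the lowest and the ONC-J libraries the highest, without overlap between them. Guca1a, which encodes the photoreceptor guanylate cyclase activator GCAP1, was 0.45 higher in ONC-J than in ONC (SE 0.09, adjusted p = 0.0425). Cldn1 and Guca1a were named after their values were seen. Each of these 3 calls was lost without ONC replicate 2, without ONC replicate 3 or without ONC-J replicate 2, that of Guca1a also without WT replicate 2 or ONC-J replicate 1, at adjusted p of 0.0537 to 0.205. Without ONC replicate 2 or ONC-J replicate 3, Fam107a and Guca1a were called against WT in ONC-J, at adjusted p of 0.0226 to 0.0275, as Fam107a was without WT replicate 1 (0.0434) and Guca1a without ONC replicate 1 (0.0316).

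Some genes named here overlap another gene in the annotation, and whether counting used strand is not stated in the sources used here. Reads of Mmp12 and Mmp1b, Jun and Junos, Cdkn1a and AC167363.2, Penk and A830012C17Rik, Btg3 and Cxadr, Sun2 and Gm16575, Zranb1 and 1500002F19Rik, Zyx and Epha1, Plin4 and Hdgfl2, Htr1b and D430036J16Rik, Rgs11 and Arhgdig, and Timp3 and Syn3 may therefore be mixed where the genes overlap.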

How the data were processed

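Poly-A RNA of whole retina was sequenced in 15 libraries, 3 for each of 5 groups. The authors aligned paired-end reads with HISAT2 2.0.5 to mm10, by the processing notes and the methods, and counted them per gene with featureCounts, and deposited whole-number counts and FPKM. The annotation release and strand setting are not given in the sources used here. All 15 libraries were fitted in edgeR 4.0.16 (R 4.3.3) by the quasi-likelihood test on the deposited counts, with TMM, filterByExpr (minimum count 10), a mean per group and Benjamini-Hochberg adjustment over 19259 genes. A gene was called at an adjusted p under 0.05. CPM use TMM library sizes. Coordinates were taken from GENCODE M21.

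ONC-J against WT, ONC against WT and ONC-J against ONC were tested in this fit. Both comparisons with WT share the WT libraries. Alternatives were DESeq2 1.42.0, limma-voom (limma 3.58.1), other scalings and filters, a replicate block, leaving out libraries, and limma on log2 of the deposited FPKM plus 0.1 or 1. Scripts were tested on simulated counts. The members and lists were chosen with earlier results of these data known. The named genes were those with the highest and lowest fold changes and non-overlapping libraries, those with the smallest p in each class, those called against ONC, up to 4 members of each list and genes the study names, and exceptions are marked. Several genes that met this rule, mainly less well known ones, are not described. Lists were described by counts and medians, without a set test.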

Additional observations from a re-analysis of the deposited data

How the results depend on the processing

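Without a low-count filter, ONC-J against WT gave 1288 genes (699 higher, 589 lower), ONC against WT 881, ONC-J against ONC 356, injury genes that remained 582, genes absent after crush alone 381 and injury genes no longer called 287. DESeq2 called 96 genes between ONC-J and ONC on 15 libraries and 101 on 9, and gave 270 genes absent after crush alone, and limma-voom gave 171 injury genes no longer called. The cause of these differences was not tested. Leaving out 1 library at a time gave 379 to 765 genes in ONC-J against WT (214 to 418 higher, 165 to 347 lower), 271 to 413 in ONC against WT, 2 to 61 in ONC-J against ONC, 239 to 284 that remained, 52 to 275 absent after crush alone and 32 to 158 no longer called. Without WT replicate 1 and ONC replicate 2 these counts were 502 (220 lower), 218, 8, 199, 144 and 19. With other definitions, 131 genes had an absolute log2 fold change of 1 or more, 372 had an adjusted p of 0.05 or more in ONC, 150 of the 171 also had an unadjusted p under 0.05 against ONC, and 17 of the 83 had an unadjusted p of 0.05 or more in ONC-J.

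The methods state that experiments were repeated 3 times and do not say whether libraries with the same number came from the same repeat. Over 12445 genes, the deviations of libraries with the same number (1, 2 and 3) correlated at -0.10, 0.14 and -0.31 between WT and ONC-J. The correlations were 0.18, -0.13 and 0.32 between WT and ONC, and 0.20, 0.05 and -0.13 between ONC and ONC-J. With 3 libraries per group, these correlations of mixed sign cannot decide whether the numbers pair the samples. With a replicate block, 839 genes were called in ONC-J against WT in place of 696, and 48 in ONC-J against ONC in place of 24. Calls were followed for 282 genes named by the rule, in the lists or after their values were seen. Over 20 settings, 5081 of 5627 values of these genes kept their side of the threshold, 353 were no longer called and 193 became called. No value that was called turned its sign, and 15 values of 7 genes that were not called did, among them the lens crystallin Cryaa (log2 3.22 without WT replicate 1 in place of -4.79).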

Other observations

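Genes of glycolysis, a list put together after values had been seen, included 3 that were lower in ONC-J than in WT. The 18 symbols matched 19 gene identifiers, since Aldoa has 2 in the table, and 17 of the 19 lay below WT, as did 52.1% of all genes tested. Ldha and 2 others were called lower in edgeR and none higher, the median was -0.24 in ONC-J and -0.10 in ONC, and 13 were lower and 1 higher at an unadjusted p under 0.05, which over all genes was the case for 8.72% and 8.16%. DESeq2 called 4 lower and 1 higher, and limma-voom 6 and 1. The count of 3 was 1 without ONC-J replicate 1 and 10 without ONC-J replicate 3.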
